A study of Mus musculus with 50 samples.

Results

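Cxcl12, a chemokine ligand, and Cxcr4, the receptor through which it acts, were examined in sections of mouse liver by CosMx spatial molecular imaging, an assay that decodes single transcripts in place and assigns them to segmented cells. They were chosen by name and are 2 of the 1000 gene targets of the panel, which also carried 10 negative probes that match no transcript. Both groups of mice had received the virus AAV8 Tbg-Cre, in which the hepatocyte promoter TBG drives the Cre recombinase, at 6 months of age, and livers were collected 12 months later, at 18 months. Control mice were wild-type C57BL/6 animals, and HIRA KO mice were HIRA fl/fl C57BL/6 animals, in which Cre removes the H3.3 chaperone HIRA from hepatocytes. Hira is not a target of the panel, so its loss could not be checked here. The series describes 3 mice per group. The 25 fields of view of each group formed 3 tissue areas, and the area was taken as the replicate because the labels of the fields name no mouse. The 3 control areas lay in the left column of the slide and the 3 HIRA KO areas in the right, so genotype and side of the slide cannot be told apart.

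CXCL12 is secreted by stromal cells, in the liver mainly by hepatic stellate cells, the vitamin A-storing pericytes of the sinusoid that can turn into collagen-producing cells. It binds CXCR4, a G protein-coupled receptor of leukocytes that draws B cells, plasma cells, T cells and neutrophils towards the ligand or holds them there. ACKR3, a second receptor, takes CXCL12 up and clears it. In the GRCm38 build (GENCODE vM21) Cxcl12 (ENSMUSG00000061353) is a protein-coding gene on chromosome 6, from 117168535 to 117181367 on the plus strand, and Cxcr4 (ENSMUSG00000045382) a protein-coding gene on chromosome 1, from 128588199 to 128592293 on the minus strand.

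After cells with few counts or an extreme area were left out, 49665 of 52132 segmented cells remained. Control areas held 718991 to 1066387 gene counts and HIRA KO areas 1292256 to 1542205, with medians of 88 to 134 and 104 to 147 counts per cell. Segmented cells were smaller in HIRA KO, with a median of 10124 ± 1389 square pixels against 14444 ± 2310 (SD, n = 3 areas each). Levels are given below as CPM, counts of a target scaled to 1000000 gene counts of the same cells.

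The ligand and the receptor were detected at very different depth. Cxcl12 had 26805 decoded transcripts, rank 24 of the 1000 targets and 8.11 times the mean negative probe. Cxcr4 had 3452 transcripts, rank 880 and 1.04 times the mean negative probe, and 5 of the 10 negative probes had more. Over the whole section the number of Cxcr4 transcripts therefore could not be told from background. Their position within cells differed from that of the negative probes. Of Cxcr4 transcripts 42.8% lay in the nucleus, against 23.01% to 28.998% for the 10 negative probes and 42.6% for Cxcl12. The 263 detected targets with no more transcripts than the highest negative probe had 29.4% to 66.2%, with a median of 46.9%. All of these weak targets thus lay above every negative probe, so the nuclear share cannot tell whether the Cxcr4 transcripts are signal.

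Cxcl12 was highest in stellate-like cells, as the plot of Cxcl12 by cell class shows. Cells were clustered without Cxcl12 and Cxcr4, so neither gene entered the classes. The 5259 stellate-like cells, led by the matrix genes Dcn, Bgn and Col3a1 or by Gsn, Mgp and Dpt, held 9917, 9283 and 15496 CPM in the 3 control areas and 8236, 10023 and 10973 CPM in the 3 HIRA KO areas, a mean of 10655 ± 2538 (SD, n = 6 areas). Every one of these values lay above every value of the other named classes, the highest of which was 4466 CPM in B-lineage-like cells of control area 1. The cluster led by Dcn, Bgn and Col3a1 (4329 cells) had 11097 CPM and that led by Gsn, Mgp and Dpt (930 cells) 8101 CPM. Both were named by the same marker list, and whether each holds stellate cells of the sinusoid was not tested.

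**Figure D1:**
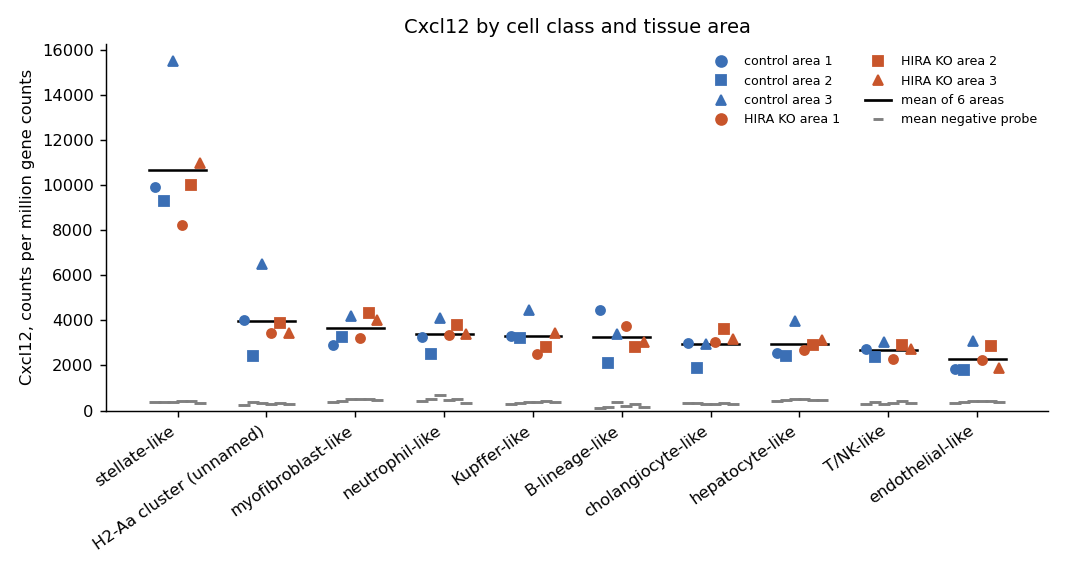
Cxcl12 level in CPM in each cell class, 1 dot per tissue area coloured by genotype, black line the mean of the 6 areas, grey dashes the mean negative probe of the class. Stellate-like cells lie between 8236 and 15496 CPM, above the dots of the other named classes.

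Below the stellate-like cells the classes lay close together. Contractile myofibroblast-like cells had 3649 ± 603 CPM, neutrophil-like cells 3399, Kupffer-like cells, the resident macrophages, 3295, and B-lineage-like cells 3268 (SD, n = 6 areas). Cholangiocyte-like cells had 2946 CPM, hepatocyte-like cells 2942 ± 558 and T/NK-like cells 2666, and endothelial-like cells, which line the sinusoids and vessels, came last with 2279 ± 557. Neighbours in this order differed by less than their spread over areas. The targets whose profile over 53 class-by-area sums was most like that of Cxcl12 were Dcn (r = 0.877), Col14a1 (0.814), Gsn (0.785), Bgn (0.762) and Col1a2 (0.752), all matrix or stromal genes. Profiles of 1 area share its tissue and depth, and all 5 genes are markers or leading genes of the stellate-like clusters.

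Stellate-like cells were the strongest but not the only place where Cxcl12 counts were found. They held 24.2% of all Cxcl12 counts in kept cells, against 28.4% in the far more numerous hepatocyte-like cells. Per stellate-like cell the mean was 0.92, 1.02 and 1.53 counts in the control areas and 0.89, 1.18 and 1.38 counts in the HIRA KO areas, and between 38.3% and 51.1% of these cells had none. With every cell thinned to 50 counts, 38.9% ± 5.77 of stellate-like cells and 13.2% ± 2.34 of hepatocyte-like cells had Cxcl12 (SD, n = 6 areas). In pixels from the nearest stellate-like cell, immune-like cells had 4139 ± 1178 CPM within 75 pixels, 3991 ± 695 CPM at 75 to 150 and 2937 ± 552 CPM at 300 to 600. Endothelial-like cells went from 2990 ± 1021 to 1894 ± 603 CPM between the first and the last of these distances, whereas hepatocyte-like cells had 3043 ± 1045 and 2917 ± 440. Segmented cells can hold transcripts of a neighbour, whose part in these values was not tested.

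The level of the source was also compared along the axis from portal to central vein. Stellate-like cells nearer to a cholangiocyte-like (bile duct) cell were set against those nearer to a cell of the hepatocyte cluster led by Glul, the glutamine synthetase of cells around the central vein. The log2 ratio of Cxcl12 was -0.05 ± 0.11 (SD, n = 6 areas), below 0 in 4 of 6 areas (exact sign-flip permutation test, two-sided, p = 0.3125, adjusted 0.455 over the 16 exact tests). No difference along this axis was detected, although with classes clustered on all targets the ratio was -0.11 (exact sign-flip permutation test, p = 0.031). Both stellate-like clusters, which differ in Cxcl12, entered this ratio together, and it was not taken for each alone.

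Genotype did not move Cxcl12 past the test in any class examined. Over all cells the level was 3340, 2817 and 5410 CPM in the control areas and 3354, 3835 and 3535 CPM in the HIRA KO areas. Control area 3 stood above all others and the groups overlapped. The log2 fold change, HIRA KO over control, was -0.0041 (SE 0.27, edgeR quasi-likelihood test, Benjamini-Hochberg adjusted p = 0.998), where 0.2% of the 998 targets tested were called, and 0.36 without control area 3. In stellate-like cells, whose areas overlapped as well, it was -0.20 (SE 0.30, edgeR with Benjamini-Hochberg adjusted p = 0.945), where 0.401% of targets were called, and 0.10 without control area 3. In endothelial-like cells it was 0.10 (SE 0.20, edgeR with Benjamini-Hochberg adjusted p = 0.991), where 0.1% were called.

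The share of stellate-like cells with Cxcl12, thinned to 50 counts, was 40.4% ± 7.997 for control and 37.4% ± 3.55 for HIRA KO areas (SD, n = 3 each, exact permutation test, p = 0.6, adjusted 0.738). The share of Cxcl12 counts that lay in stellate-like cells was 25.3% ± 9.78 and 22.4% ± 6.05 (exact permutation test, p = 0.8, adjusted 0.853). Per area of segmented cells the picture was different, with 26.4 ± 6.18 Cxcl12 counts per megapixel for control and 38.6 ± 3.61 for HIRA KO areas (SD, n = 3, exact permutation test, p = 0.1, the smallest this design allows, adjusted 0.178). All gene counts per megapixel stood apart in the same way, 7087 ± 1334 against 10787 ± 473, a ratio of 1.52 beside 1.46 for Cxcl12.

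Cxcr4 lay above the negative probes in few classes, among them B-lineage-like cells, the B cells and plasma cells marked by Igkc, Ighm and Jchain. These 1306 cells held 220 Cxcr4 counts, 868 CPM with the areas summed. By area the level was 537, 0 and 849 CPM in control and 937, 1209 and 872 CPM in HIRA KO. The 0 came from control area 2, whose 14 B-lineage-like cells had 1408 gene counts, which allows a level of up to 2131 CPM (3 counts, counting error only). The 3 HIRA KO values lie above the 3 control values. In HIRA KO area 1, however, 78 of the Cxcr4 counts came from field of view 14. The other fields of that area had 612 CPM, below control area 3. The share of all targets that separate in this way in the class was not taken. The difference was not tested because of the few cells in control area 2. In the other 5 areas Cxcr4 was 2.38 to 5.37 times the mean negative probe of the same cells. The lead in CPM depends on the clustering. With all targets used, or with cells under 50 counts left out, a monocyte/dendritic-like class appeared, with 795 and 776 CPM of Cxcr4 over the summed areas, while B-lineage-like cells numbered 661 and 604, with 713 and 699 CPM. Relative to the negative probes of the same cells, B-lineage-like cells were at 3.87 and 3.83 times and monocyte/dendritic-like cells at 3.09 and 3.03 times.

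**Figure D2:**
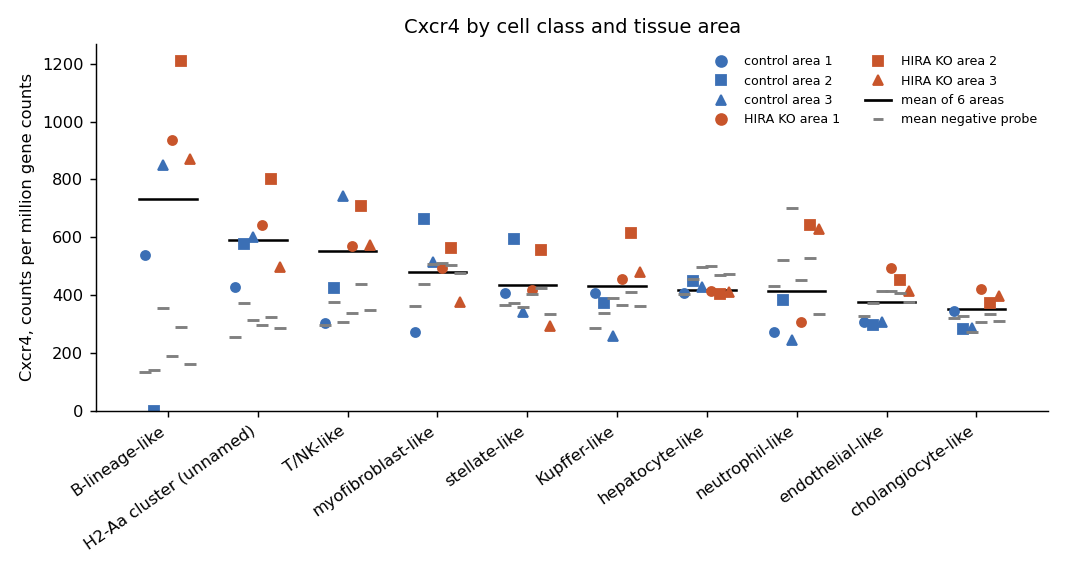
Cxcr4 level in CPM in each cell class, 1 dot per tissue area coloured by genotype, black line the mean of the 6 areas, grey dashes the mean negative probe of the class. B-lineage-like cells lie above their negative probes in 5 of 6 areas, whereas hepatocyte-like cells, between 402 and 447 CPM, lie at theirs.

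An unnamed cluster led by the MHC class II genes H2-Aa and H2-Ab1 had 591 ± 129 CPM (SD, n = 6 areas), 1.55 to 2.49 times its negative probes in every area. T/NK-like cells, marked by Ccl5, Nkg7 and Cd8a, had 554 ± 168 CPM, 1.01 to 2.42 times the negative probes. Stellate-like (434 CPM), Kupffer-like (431), neutrophil-like (413) and endothelial-like cells (377) had mean levels 0.915 to 1.21 times the negative probes, and hepatocyte-like cells, with 418 ± 16.6 CPM, 0.829 to 1.01 times. Myofibroblast-like (480 CPM) and cholangiocyte-like cells (351 CPM) lay in the same range. The levels of these classes were near background. Neighbours in the order of the named classes differed by less than their spread. Over the same 53 sums the targets most like Cxcr4 were Igha (r = 0.699), Ighm (0.609), Jchain (0.591), Cd37 (0.589) and Igkc (0.574). They are 4 genes of antibody chains and a tetraspanin of B cells. Igha, Ighm, Jchain and Igkc also lead the B-lineage-like cluster, so their likeness is not independent of the Cxcr4 level in that class. The sums left out the B-lineage-like class of control area 2, which had 14 cells, under the minimum of 20, and 0 Cxcr4 counts.

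Antibody staining gave a way to pick cells that used no transcript. The 10% of cells with the brightest CD45, the common leukocyte surface protein, in each area were compared with the rest, a comparison chosen after seeing the data. CD45-bright cells had 498, 482 and 466.2 CPM of Cxcr4 in control areas and 849, 807 and 736 CPM in HIRA KO areas, whereas the other cells had 364, 446 and 417 CPM and 447, 479 and 419 CPM. Cxcr4 was higher in the bright cells in 6 of 6 areas, by 0.54 ± 0.35 on the log2 scale (exact sign-flip permutation test over the 6 areas, p = 0.031, which is the lowest it can give, adjusted 0.178), as were 13.4% of 998 targets. Negative probes went the other way in 6 of 6 areas, by -0.91 ± 0.27. Cxcl12 differed by 0.06 ± 0.28.

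**Figure D3:**
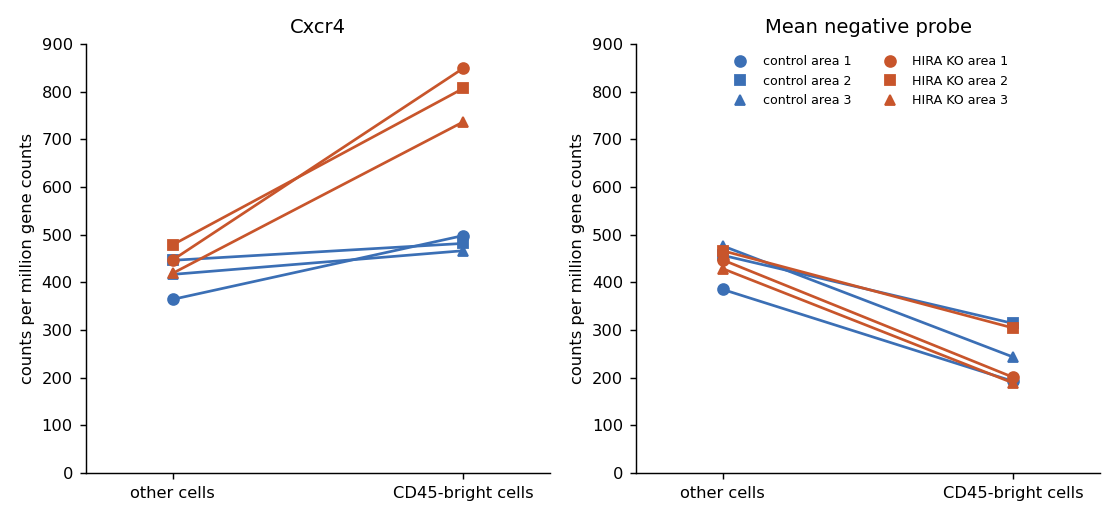
Cxcr4 and the mean negative probe in CPM in the other cells and in the CD45-bright 10% of cells, 1 line per tissue area coloured by genotype. Cxcr4 lines rise to 736 to 849 CPM in HIRA KO and to 466.2 to 498 CPM in control, while all negative probe lines fall.

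The step from other to CD45-bright cells was 0.24 ± 0.18 for control and 0.83 ± 0.088 for HIRA KO areas on the log2 scale, with no overlap of the areas (exact permutation test, n = 3 areas each, p = 0.1, adjusted 0.178). The bright cells were not the same mixture: 24.7%, 1.32% and 3.14% of them were B-lineage-like in control areas and 38.5%, 5.04% and 44.2% in HIRA KO areas. Without B-lineage-like cells the bright cells had 464, 486 and 426 CPM in control and 646, 760 and 514 CPM in HIRA KO, which again did not overlap (exact permutation test, n = 3 areas each, p = 0.1, adjusted 0.178). The rest of the mixture was not matched between areas. For neither comparison by genotype was the share of all targets that separate in this way taken.

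Over all cells Cxcr4 was 379, 449 and 421 CPM in control areas and 494, 507 and 451 CPM in HIRA KO areas. All HIRA KO areas lay above all control areas, at the closest by 451 against 449 CPM, as they did for 2.51% of targets. The log2 fold change of 0.33 (SE 0.10) did not pass the test (edgeR with Benjamini-Hochberg adjusted p = 0.571; DESeq2 0.0859). Relative to the mean negative probe the level was 0.994 ± 0.0576 for control and 1.14 ± 0.0376 for HIRA KO areas (SD, n = 3 each). The fields of view of the groups overlapped, as the plot by field shows.

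**Figure D4:**
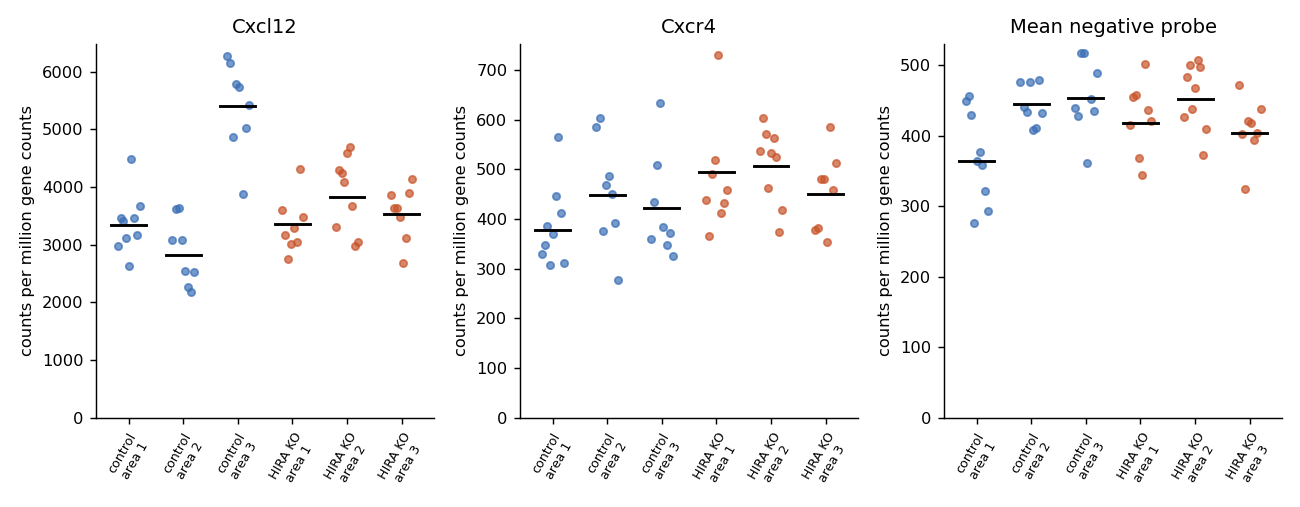
Cxcl12, Cxcr4 and the mean negative probe in CPM, 1 dot per field of view, grouped by tissue area, line the value of the area. Fields of control area 3 reach the highest Cxcl12 levels, and 1 field of HIRA KO area 1 reaches 730 CPM of Cxcr4.

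In immune-like cells, the T/NK-like, B-lineage-like and neutrophil-like classes together, Cxcr4 was 397, 387 and 571 CPM in control areas and 724, 792 and 784 CPM in HIRA KO areas. The groups did not overlap, and 3.51% of targets had all HIRA KO areas above. The log2 fold change was 0.93 (SE 0.22), with an unadjusted p of 0.000403 and an edgeR Benjamini-Hochberg adjusted p of 0.201. None passed among 998 targets (0.0% called; 93 at an unadjusted p under 0.05; 0 with DESeq2). With the slide row as a block the adjusted p was 0.00349, and without HIRA KO area 2 it was 0.0202 (both edgeR with Benjamini-Hochberg), where 27 and 22 of the 998 targets were called. Without field of view 14 of HIRA KO area 1, which is rich in B-lineage-like cells, the log2 fold change was 0.75 (edgeR with Benjamini-Hochberg adjusted p = 0.847).

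The make-up of the immune-like cells varied between areas. B-lineage-like cells were 218 of 739, 14 of 328 and 57 of 496 immune-like cells in control areas and 530 of 1349, 85 of 566 and 402 of 738 in HIRA KO areas, and the groups overlapped in this share, which was not tested. Neutrophil-like cells, with Cxcr4 near background, were 262, 174 and 186 of the same cells in control areas and 291, 224 and 116 in HIRA KO areas. Their share overlapped too and was not tested. Without B-lineage-like cells, so in T/NK-like and neutrophil-like cells, the log2 fold change of Cxcr4 was 0.57 (edgeR with Benjamini-Hochberg adjusted p = 0.766). The part of this mixture in the result was not separated further, and in such sums more cells of a type and more RNA per cell cannot be told apart.

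Counted by cell and thinned to 50 counts, 1.62%, 1.85% and 2.61% of immune-like cells had Cxcr4 in control areas and 3.16%, 3.14% and 3.67% in HIRA KO areas (exact permutation test, n = 3 areas each, p = 0.1, adjusted 0.178). Hepatocyte-like cells, which should lack the receptor, gave 2.29%, 2.13% and 2.01% in control areas and 2.12%, 1.94% and 2.05% in HIRA KO areas. The immune-like share lay below that of hepatocyte-like cells in control areas 1 and 2 and above it in control area 3 and the 3 HIRA KO areas. The mean negative probe was lower in immune-like than in hepatocyte-like cells of control area 1, 262 against 403 CPM, and Cxcr4 of its immune-like cells was 1.52 times their own negative probes. In control area 2 the negative probes of these classes were alike, and Cxcr4 of its immune-like cells was not above their own negative probes. Before thinning the immune-like shares were 4.06%, 3.96% and 4.03% against 9.04%, 8.48% and 10.8%, at medians of 92, 98 and 76 against 115, 104.5 and 164 counts per cell. Immune-like cells held 6.91% ± 3.32 of all Cxcr4 counts of control and 15.5% ± 7.13 of those of HIRA KO areas (SD, n = 3 each, exact permutation test, p = 0.3, adjusted 0.455).

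In classes where Cxcr4 lay near background over the 6 areas, the comparison by genotype gave no call. Kupffer-like cells had 406, 372 and 259 CPM in control areas and 455, 616 and 481 CPM in HIRA KO areas, with a log2 fold change of 0.64 (edgeR with Benjamini-Hochberg adjusted p = 0.740), where 0.703% of targets were called and 4.62% had all HIRA KO areas above. Endothelial-like cells had 308, 294 and 305 CPM and 492, 452 and 413 CPM, a log2 fold change of 0.62 (edgeR with Benjamini-Hochberg adjusted p = 0.487), where 3.31% of targets had all HIRA KO areas above. Hepatocyte-like cells, the target of the deletion, had 407, 447 and 428 CPM and 414, 402 and 411 CPM, which overlapped.

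Among immune-like cells, those with Cxcr4 were not found nearer to the ligand source than those without. This set left out the unnamed H2-Aa cluster, where Cxcr4 lay above the negative probes, and kept neutrophil-like cells, where it was near background. Source cells were stellate-like cells with at least 2 Cxcl12 counts, 204, 123 and 361 per control area and 247, 428 and 178 per HIRA KO area. Immune-like cells with Cxcr4 numbered 30, 13 and 20 and 122, 48 and 80. Their median distance to the nearest source cell was 486, 579 and 273 pixels in control areas and 468, 304 and 415 pixels in HIRA KO areas, against 451, 519 and 319 and 434, 298 and 398 pixels for immune-like cells without Cxcr4. The log2 ratio of the distances was 0.04 ± 0.14, above 0 in 5 of 6 areas (exact sign-flip permutation test, p = 0.531, adjusted 0.708). It was 0.0069 to 0.11 over the other settings, among them the clusterings with a monocyte/dendritic-like class.

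**Figure D5:**
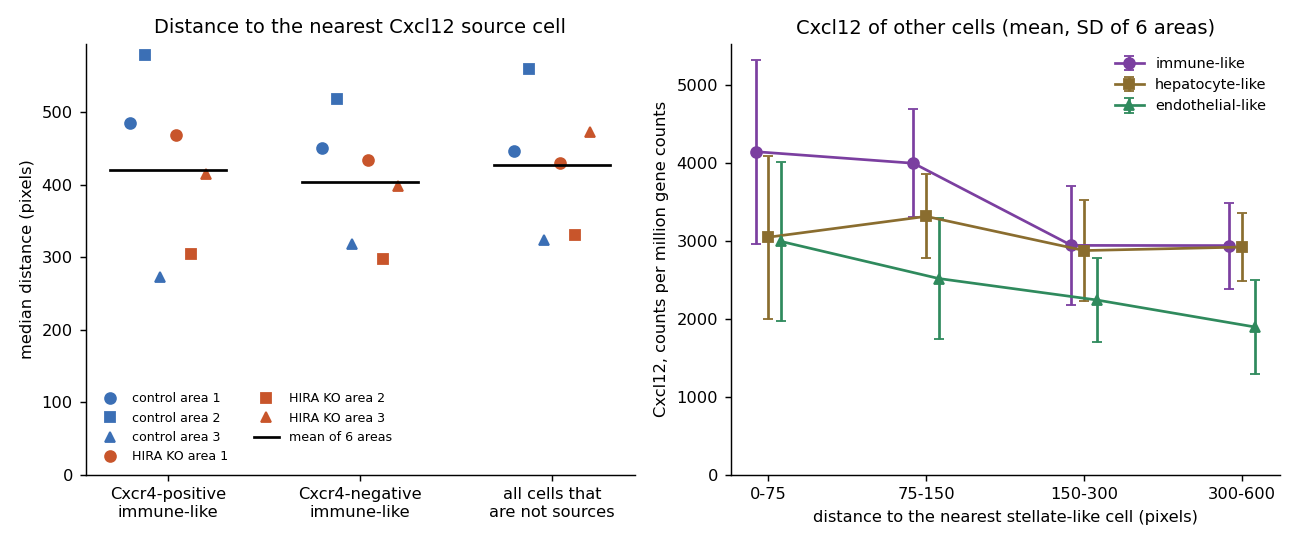
Left, median distance in pixels to the nearest Cxcl12 source cell for Cxcr4-positive immune-like, Cxcr4-negative immune-like and all other cells, 1 dot per tissue area. Right, Cxcl12 in CPM of 3 classes by distance to the nearest stellate-like cell, mean and SD of 6 areas. The 3 sets of dots on the left overlap, and on the right immune-like cells go from 4139 to 2937 CPM.

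Genotype did not shift this distance past the spread, with 446 ± 157 pixels for control and 396 ± 83.6 pixels for HIRA KO areas (SD, n = 3 areas each, exact permutation test, p = 0.7, adjusted 0.8). The 20 cells nearest to an immune-like cell held 39.6 ± 14.1 Cxcl12 counts per 10000 gene counts where the cell had Cxcr4 and 38.5 ± 8.43 where it had none (SD, n = 6 areas, log2 ratio -0.0071 ± 0.26, exact sign-flip permutation test, p = 0.9375). With Cxcr4 near background, many cells with 1 count may not express it, which limits both comparisons. By class, the mean over areas of the median distance to a source cell was shortest for B-lineage-like cells, 344 ± 79.3 pixels. It was longest for hepatocyte-like cells, 491 ± 89.6, a description without a test. The unnamed H2-Aa cluster came second with 405 ± 128, within the spread. B-lineage-like cells did not lead in control area 1 (458 against 434 pixels for Kupffer-like cells) or control area 3 (329 against 307). They led in the 3 HIRA KO areas and, with 14 cells, in control area 2.

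Single transcripts, taken without cell outlines, were compared as well. The median distance from a Cxcr4 transcript to the nearest Cxcl12 transcript was 105, 113 and 103 pixels in control areas and 82.5, 81.9 and 85.6 pixels in HIRA KO areas. Divided by the median over all targets of the same area this was 1.01 ± 0.0430, rank 563 of 997 targets. For negative probes the median distance was 118, 112 and 102 pixels in control areas and 96.0, 84.6 and 91.8 pixels in HIRA KO areas. With Cxcr4 near background over the section, this comparison is limited as well. Dcn (0.535), Bgn (0.641) and Col3a1 (0.700), genes of stellate cells, lay nearest to Cxcl12, with 0.642, 0.8025 and 0.886 in their highest area. The antibody genes Igkc (0.720 ± 0.226) and Ighm (0.734 ± 0.233) came next by mean (SD, n = 6 areas). They varied more, and in their highest area they reached 1.08 and 1.04, beyond the median target.

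Of 21 other genes of the CXCL12 axis 17 were on the panel and 16 were tested over all cells, since Cd44 had 0 counts. None rose or fell (edgeR with Benjamini-Hochberg; 0.2% of all targets were called), and their median log2 fold change was 0.06, beside -0.0095 for all targets. Cd74, the MHC class II invariant chain and a receptor of MIF that pairs with CXCR4, had 4200 ± 1834 CPM for control and 7141 ± 2897 CPM for HIRA KO areas (SD, n = 3 each, adjusted p = 0.671). Vcam1, an adhesion molecule for leukocytes, had 812 ± 97.9 and 944 ± 116 CPM (adjusted p = 0.571), and Itgal, an integrin chain of leukocytes, and Hif1a, an oxygen-sensitive transcription factor, had log2 fold changes of 0.22 and 0.14. Ackr3, the scavenging receptor, ranged from 335 CPM in B-lineage-like to 702 CPM in stellate-like cells with the areas summed, beside 182 and 385 CPM for the mean negative probe of these classes.

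Among 17 stromal niche genes 1 rose over all cells, where 0.2% of all targets were called: Col1a1, the main chain of collagen I, from 573 ± 52.0 to 891 ± 161 CPM (SD, n = 3 areas each, log2 fold change 0.74, SE 0.12, edgeR with Benjamini-Hochberg adjusted p = 0.0272). Col3a1, of collagen III, had a log2 fold change of 0.77 (adjusted p = 0.208), Col1a2 0.34 and Vim 0.35 (adjusted p = 0.571 and 0.672). The median of the list was -0.04. Within stellate-like cells both Col1a1 and Col3a1 are among the genes that define the class, so their tests there, which they passed, are not given as results. Over all cells Col1a1 passed the test and Cxcl12 did not, and the difference between the 2 genes was not tested there. Within stellate-like cells their ratio rests on a gene that defines the class, so it is not given as a result either.

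The other chemokines and receptors gave no call over all cells, where 0.2% of all targets were called. Of 26 other ligands none passed, with a median log2 fold change of -0.01. Cxcl1, which attracts neutrophils, had 0.54 (adjusted p = 0.571), the interferon-induced Cxcl9 0.53, the T cell attractant Ccl5 0.43 and the lymphoid chemokines Ccl21a/b/d, read by 1 shared target, -0.34 (adjusted p = 0.634). Of 13 other receptors none passed, with a median of -0.09. In 5 of these 13 all HIRA KO areas lay below all control areas, among them the scavenging receptor Ackr4 (-0.27, adjusted p = 0.588), Cxcr1 (-0.27) and Ccr1 (-0.17), and 16.7% of all targets did so (167 of 998). Ccr10 had 0.10.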

How the data were processed

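The files the authors deposited hold, for every segmented cell, unnormalized counts of each target, besides a table of single transcripts and, per the file headers, the mean intensity of antibody stains per cell; decoding and segmentation were done on the platform, from FFPE sections 5 µm thick, and the pixel size and the versions of the decoding and segmentation software are not given in the sources used here. Cells under 20 counts (2215) or over 5 times the geometric mean area (252) were left out, as were transcripts outside cells (6.89% of 7557143). Without Cxcl12 and Cxcr4, counts were turned into Pearson residuals (theta 100, clip 10), 30 principal components and a graph of 20 neighbours, and clustered by Leiden at resolution 1.6 (leidenalg 0.10.2, scikit-learn 1.9.0, Python 3.11.15). A cluster was named when at least 3 markers of a class rose by over 0.5 (log2) and that class led its 10 leading genes. No monocyte/dendritic class resolved in this clustering, so the immune-like cells hold none. No doublet caller was run.

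Counts summed per area were tested with edgeR 4.0.16 (quasi-likelihood, TMM, filterByExpr, Benjamini-Hochberg at 0.05 over all targets; R 4.3.3), with DESeq2 1.42.0 as an alternative. Area values were tested by exact permutation (smallest p 0.1 for 3 against 3, 0.031 for 6 sign flips), adjusted over 16 tests, of which those on CD45 and per megapixel were added after seeing the data. Self-tests used simulated data. On the slide, each of the 50 fields of view was closest to the middle of the area it was given to. Where nothing names the animals, p-values measure the spread between areas. Alternatives were library size scaling, no filter, other clusterings, thinning, the slide row as a block and each area left out.

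Genes named are the members, the 5 targets most like each by profile (targets above the highest negative probe; log2 of CPM + 100) and, per list, up to 4 genes of lowest p and every call. The members and lists were chosen with earlier results of these data known. Neither probe nor protein sequences were used here.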

Additional observations from a re-analysis of the deposited data

Results flagged for a closer look

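Of 12 sets of fields of view examined for a value far from the others, 1 held such a value. The limit is one that chance alone passes in about 1 in 20 single sets, so 1 flag among 12 sets can arise by chance. Field of view 14 of HIRA KO area 1 had 730 CPM of Cxcr4 (151 counts in 1516 cells), against 365 to 518 CPM in the other fields of that area, while its mean negative probe was 344 CPM. B-lineage-like cells were 22.6% of its cells and 2.17% of those in the other fields of the area, with 1076 and 612 CPM of Cxcr4. Without this field the log2 fold change of Cxcr4 was 0.29 over all cells and 0.75 in immune-like cells (edgeR with Benjamini-Hochberg adjusted p = 0.607 and 0.847).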

How the results depend on the processing

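Of 151 alternative values of 14 results, 128 kept their direction and their side of the threshold, 20 turned direction and 3 newly passed, and the causes were not tested. With an area left out in turn, Cxcl12 ranged from -0.21 to 0.36 (log2 fold change) over all cells, from -0.36 to 0.10 in stellate-like and from -0.060 to 0.44 in endothelial-like cells, and Cxcr4 in immune-like cells from 0.81 to 1.08. The Cxcl12-positive share of stellate-like cells ranged from -6.20 to 1.501 percentage points, their share of Cxcl12 counts from -7.75 to 2.03, the distance between genotypes from -136 to 16.5 pixels and the log2 ratio of Cxcl12 around Cxcr4-positive cells from -0.063 to 0.067. With the slide row as a block Cxcl12 over all cells was 0.061 and Cxcr4 in immune-like cells 0.92, with all segmented cells and outside transcripts Cxcl12 was 0.0029, and unthinned the Cxcl12-positive share differed by 2.19 points. The distance between genotypes was 161.8 pixels with at least 2 Cxcr4 counts and 91.7 after thinning, and Cxcl12 around the cells 0.00033 when clustering used all targets and 0.025 after thinning. The portal to central ratio was -0.11 when clustering used all targets (exact sign-flip permutation test, p = 0.031) and 0.0032 over the cells farthest toward either end. Called targets numbered 2 over all cells (1 to 17 under alternatives), 4 in stellate-like (2 to 10), 1 in endothelial-like (0 to 9), 0 in immune-like (0 to 27) and 7 in Kupffer-like cells (2 to 7). Scaling by library size alone moved the median of all targets to -0.12 over all cells and -0.16 in immune-like cells, and Cxcr4 over all cells to 0.22. By replicate number, no paired analysis was possible because the groups share no field of view number. The slide row pairs 1 control with 1 HIRA KO area by position, and with that block Cxcr4 in immune-like cells passed the threshold (adjusted p = 0.00349, edgeR with Benjamini-Hochberg, against 0.201).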
